A study of Rattus norvegicus with 8 samples.

Results

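The cytosolic ribosomal proteins are the protein part of the ribosomes that translate messenger RNA in the cytoplasm. They were taken as every probe set, other than the manufacturer's control sets, whose platform annotation gave a single gene symbol of the form Rpl or Rps followed by the usual number or letter, including Rplp0 to Rplp2 and Rpsa. That rule uses names only, and it gave 48 of the 31099 probe sets on the array. They stand for 42 of the 14217 genes named there by a single symbol, 29 of the large subunit (32 sets) and 13 of the small subunit (16 sets). Another 33 sets list such a symbol beside other symbols and were left out. Rplp1, Rplp2, Rpl8, Rpl10, Rpl17, Rpl31, Rps2, Rps14, Rps19, Rps26, Rps27a and Rpl38 have no probe set with that symbol alone and are not described here.

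Liver RNA came from male Goto-Kakizaki (GK) rats, an inbred lean strain with type 2 diabetes, with the liver taken at 18 weeks of age. One group of 4 ate AIN-93G, a purified rodent diet, for 12 weeks, and 4 others ate AIN-93G to which extract of persimmon peel (PP) was added. Each liver gave 1 array, whose probe sets are groups of short probes against 1 transcript and whose signals come from MAS5, the manufacturer's method. All 8 rats carry the GK background, so no non-diabetic liver is among them, and no dose or make-up of the extract is stated in the labels. The question was what the extract did to gene expression in the liver. In whole liver RNA, fewer cells of a type and less RNA per cell cannot be told apart.

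A ribosome joins a large subunit, where peptide bonds are formed, to a small subunit, which holds the messenger RNA and reads its codons. Most of the proteins are present in a single copy per ribosome, and cells make the set in balance. Messenger RNAs of these proteins begin with a run of pyrimidines at the cap, the terminal oligopyrimidine (TOP) tract, through which the kinase complex mTORC1 and the RNA-binding protein Larp1 control their translation and stability. Insulin and amino acids act on mTORC1 in the liver, so this gene family is one of those through which feeding is known to set the liver's capacity for protein synthesis.

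Median signals per array ran from 33.2 to 39.2 units, and pairs of arrays correlated with r from 0.967 to 0.986 over the tested sets. The beta-actin control sets for the middle and the 3′ end gave a log2 ratio, a measure of RNA integrity, that ran from -0.78 to -0.75 on the control diet and from -1.18 to -0.92 on the persimmon peel diet, without overlap. Of 14 hepatocyte markers 13 had a tested gene, and 2 of their 18 tested sets were lower. The summed signal of these markers was 114495 to 122240 in the control livers and 105937 to 111785 in the persimmon peel livers. Of 12 Kupffer cell and macrophage markers 10 were tested and 0 sets were called (sums 6673 to 8196 and 7389 to 10840), and of 6 neutrophil markers 0 reached the level tested. Of 8 tested endothelial sets 1 was lower (sums 5050 to 5341 and 4221 to 5323). Over all tested sets of the array 4.53% were called lower. The part of these measures in the values below was not tested. Some values are also given from a fit with the actin ratio. That fit cannot tell diet and ratio apart, since the ratio did not overlap between the diets.

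Levels of ribosomal protein messenger RNA were close to equal in the livers of the 2 diets. None of the 44 member sets that were bright enough to test was called in either direction. The median log2 fold change, persimmon peel minus control, was -0.01 over the 29 sets of the large subunit and -0.03 over the 15 sets of the small subunit, and it was -0.01 over all 15521 tested sets. The member sets with the smallest p were those of Rpl7 and Rpl4, lower in all 4 persimmon peel livers than in any control liver, and Rpl18 and Rpsa, with higher means. Each of these differences missed the threshold.

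The test was limma's moderated test on log2 signals over all tested sets, with 0.05 as the threshold for the Benjamini-Hochberg adjusted p of a call. It called 0 members against 4.95% of all tested sets in either direction, of which 4.53% were lower and 0.425% higher. At an unadjusted p under 0.05 there were 5 of 44 member sets (2 lower, 3 higher), or 11.4%, against 19.6% of all tested sets. No array of one diet reached the range of the other in 2 member sets, or 4.55%, against 12.9% of all sets. After quantile normalization, which makes the distribution of signals the same on every array, 3 member sets were called higher and 0 lower: Rpl18 (log2 fold change 0.27, adjusted p = 0.0213), the second set of Rpsa (0.32, adjusted p = 0.0385) and Rpl35a (0.17, adjusted p = 0.0467). The same normalization gave 271 higher and 596 lower of 15521 sets over the whole array, against 66 and 703 without it. Higher calls were thus a larger share of the 44 member sets than of all sets in that fit, a difference that was not tested. The median log2 fold change in that fit was 0.05 over the member sets and 0.02 over all tested sets. Without persimmon peel replicate 2, the array on which the bright members averaged lowest, Rpl18 was the 1 member called (0.28, adjusted p = 0.0389), in a fit that gave 269 higher and 942 lower sets over the array.

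**Figure D1:**
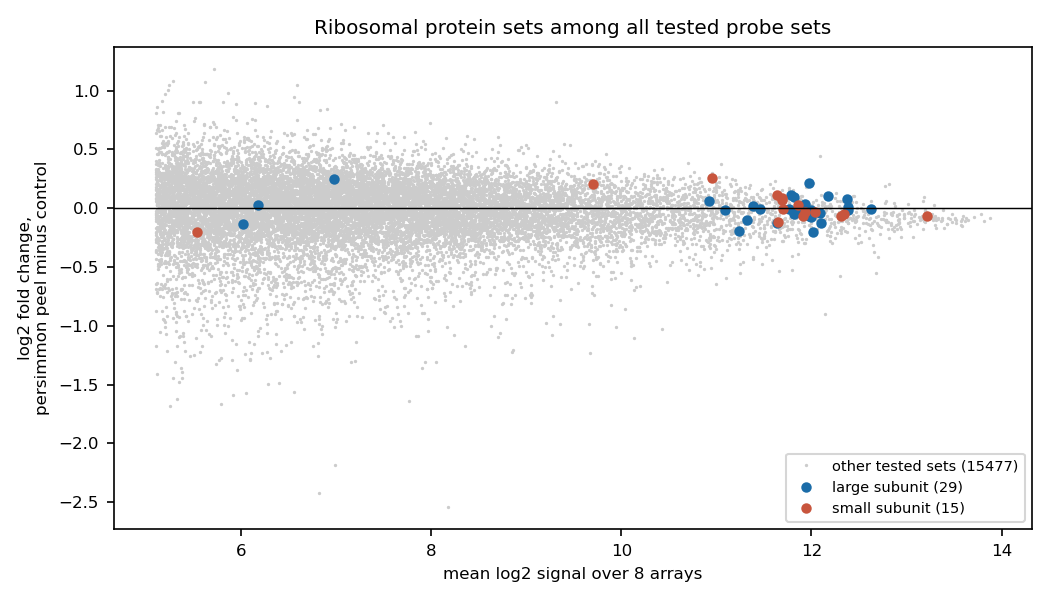
Log2 fold change (persimmon peel minus control, vertical axis) against the mean log2 signal over 8 arrays (horizontal axis) for each tested probe set, with 29 sets of the large subunit in blue, 15 of the small subunit in red and 15477 others in grey. Most members lie at the bright end and near 0, between -0.20 and 0.26, while grey points reach -2.54.

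A missed threshold does not show that levels were equal, so the width of the intervals matters more here than the count. The 95% interval of the fold change lay wholly inside 1.25-fold in either direction for 35 of 44 member sets (79.5%), against 19.0% of all tested sets, and inside 1.5-fold for 41 (93.2%), against 71.4%. Part of that goes with signal, since dim sets vary more. Among tested sets whose mean signal reached 1000 units, the interval was inside 1.25-fold for 35 of 39 member sets (89.7%) and for 918 of 1567 sets in all (58.6%). These groups were not matched for signal, since the lowest mean was 1943 units in the members and 1000 in all. The median SD within a diet was 0.10 on the log2 scale in those 39 members and 0.12 in the 1567. In the same bright range 84 sets were lower and 1 was higher, and no member was among them.

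**Figure D2:**
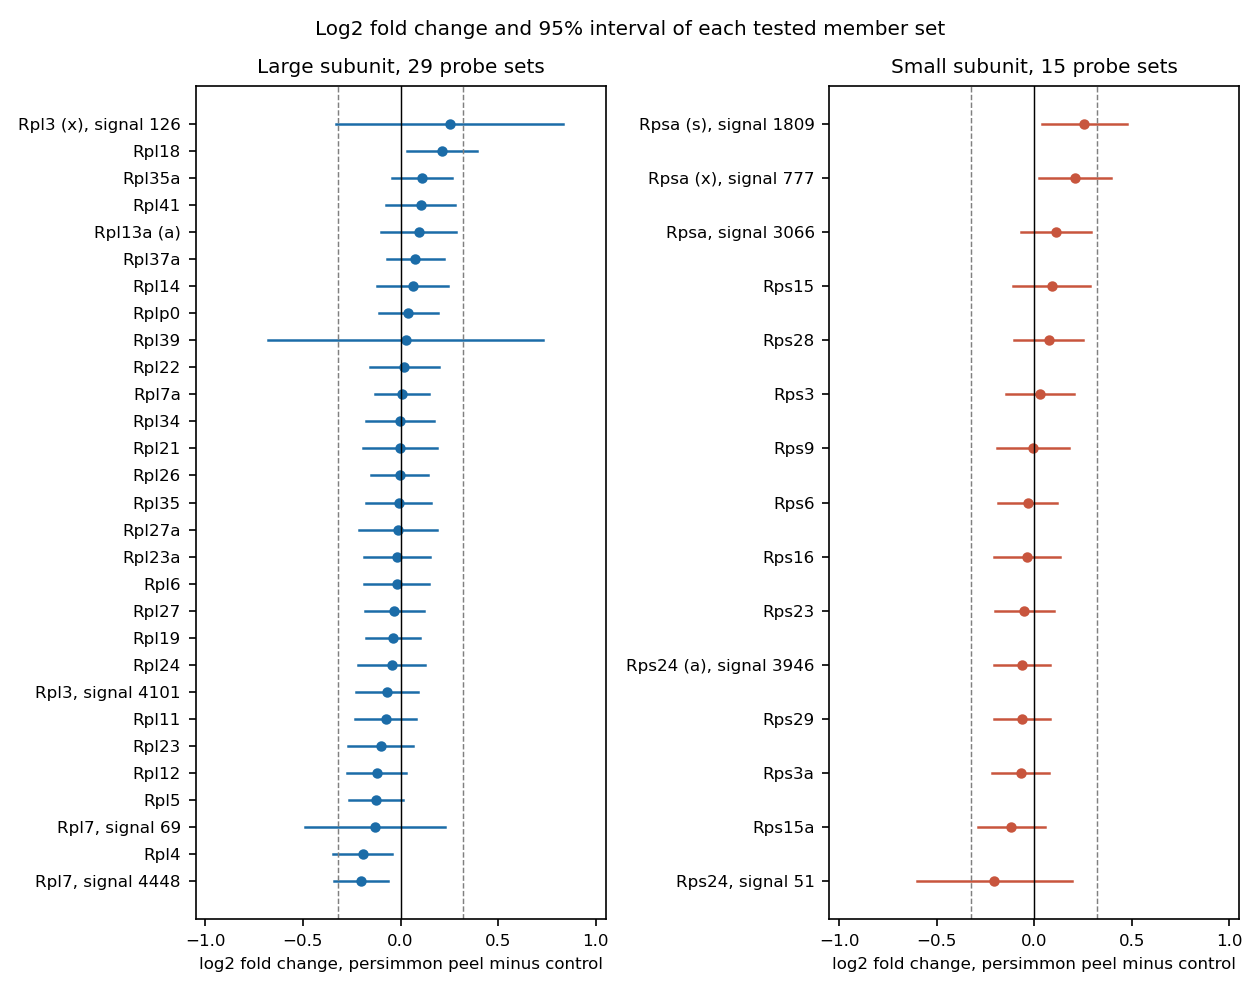
Log2 fold change (persimmon peel minus control, horizontal axis) of each tested member set, 29 of the large and 15 of the small subunit, as a point with its 95% interval. Dashed lines mark 1.25-fold either way, letters in brackets are the manufacturer's marks for sets that may match several transcripts, and the mean control signal is given where a gene has several sets. The 4 widest intervals belong to dim sets of Rpl39, Rpl3, Rpl7 and Rps24.

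The starts of these genes were searched for a pyrimidine run like that of the TOP tract. The search also takes bases before the start, so a run that was found need not lie at the cap. RefSeq start sites of assembly GRCr8 were in the sequence table for 35 of the 42 genes. Within 25 bases either side of the start, an unbroken polypyrimidine run of at least 10 bases (C or T) was present in 22 of 35 members (62.9%), against 8.81% of all 33469 starts in the table and 7.83% of the 8443 other genes with a tested set. On the opposite strand, where it reads as a purine run, it was present in 1 member (2.86%) and in 9.41% of all starts. The word CTTTC, which can lie inside such a run, was found in 19 members (54.3%) and in 6.39% of all starts, and its opposite-strand form GAAAG in 0 members and 6.45% of all starts. Both subunits had the run to a like degree, 15 of 24 genes of the large and 7 of 11 genes of the small subunit.

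The windows below are printed for members that the results turn on, from 15 bases before to 15 bases from the annotated start, 5′ to 3′ on the gene's strand. Capitals mark a polypyrimidine run of at least 10 bases inside the window. The first 5 hold one and the other 5 do not, so that the run can be compared with the values that follow.
Rpl4, chr8:73566462-73566491, plus strand: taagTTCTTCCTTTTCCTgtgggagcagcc
Rpl5, chr14:1995211-1995240, minus strand: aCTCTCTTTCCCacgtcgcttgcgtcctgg
Rpl35a, chr11:81235007-81235036, minus strand: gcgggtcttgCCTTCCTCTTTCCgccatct
Rps15, chr7:10068101-10068130, minus strand: cgctgacaccgCTTCCTTTTCCCagcagcc
Rps24, chr16:96502-96531, plus strand: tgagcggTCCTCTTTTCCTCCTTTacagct
Rpl18, chr1:105325255-105325284, plus strand: tctggacctggtctagcaggaggcgccatc
Rplp0, chr12:46718376-46718405, minus strand: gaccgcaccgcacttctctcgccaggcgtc
Rpl12, chr3:36661925-36661954, plus strand: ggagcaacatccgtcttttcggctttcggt
Rps6, chr5:106420526-106420555, minus strand: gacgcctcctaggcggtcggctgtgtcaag
Rpsa, chr8:128728864-128728893, plus strand: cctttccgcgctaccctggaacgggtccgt
An annotated start can lie some bases from the start used in liver, so a window without a run says only that these letters are not in it. In the brightest set of each gene, the median log2 fold change was -0.01 over 20 genes with a run near the start (range -0.19 to 0.11) and -0.02 over 13 genes without one (range -0.12 to 0.21). The genes with and without such a run near the annotated start thus had medians near 0 alike. Rpl4 with a run and Rpl18 without one had the lowest and the highest values of these genes, and Rpl7 is not in the sequence table.

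Rpl7, a protein of the large subunit, had the smallest p of the family. Its bright set gave signals of 4286, 4425, 4265 and 4816 in the control livers and 3883, 3738, 3968 and 3847 in the persimmon peel livers. Every persimmon peel liver lay below every control liver, and the spread among them was the smaller. The log2 fold change was -0.20 (SE 0.06, 95% interval -0.34 to -0.07, limma adjusted p = 0.0851), that is 0.868-fold. A second, dim set of Rpl7 gave 52.8 to 77.4 units over the 8 arrays, overlapping between diets (-0.13, SE 0.17, adjusted p = 0.713).

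Rpl4, which lines the tunnel through which the new protein leaves, was the other set without overlap. Its signals were 2543, 2479, 2558 and 2783 on the control diet and 2136, 2207, 2389 and 2328 on the persimmon peel diet. The log2 fold change was -0.19 (SE 0.07, 95% interval -0.35 to -0.04, limma adjusted p = 0.142). Among the 21 other ways of fitting or leaving out arrays, Rpl7 and Rpl4 kept a negative log2 fold change and were not called in any.

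The 5S ribonucleoprotein, a particle of Rpl5, Rpl11 and the 5S ribosomal RNA that also restrains the p53 regulator Mdm2 when ribosome assembly is disturbed, had both proteins tested. Rpl5 gave 4629, 4348, 4690 and 4727 units in the control livers and 3934, 4177, 4390 and 4376 in the persimmon peel livers, with 1 control liver inside the upper range of the other group (log2 fold change -0.12, SE 0.06, adjusted p = 0.301). Rpl11 gave 4044, 4272, 3936 and 4660 against 3935, 3734, 4020 and 4345, which overlapped widely (-0.08, SE 0.07, adjusted p = 0.604). Of Rpl5, 3 of 4 control livers lay above every persimmon peel liver, and neither gene passed the threshold.

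The stalk of the large subunit, which recruits the elongation factors, had 2 of its 4 listed proteins among the members. Its base protein Rplp0, often used as a reference gene, gave 3779, 3852, 3802 and 3977 units in the control livers and 3956, 3613, 4423 and 3881 in the persimmon peel livers. The control livers differed little, and the persimmon peel livers spread to both sides of them. Its log2 fold change was 0.04 (95% interval -0.11 to 0.19, limma adjusted p = 0.804). Rpl12, at the foot of the stalk, had -0.12 (SE 0.07, adjusted p = 0.362).

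Near the site of peptide bond formation, Rpl3 had a bright set at -0.07 (SE 0.07, adjusted p = 0.65) with control signals of 4225, 4176, 3790 and 4212, of which replicate 3 lay apart. A dim set of Rpl3 that may match several transcripts had 0.25 with an interval from -0.33 to 0.83, and 1 control array at 53.4 units beside the others at 139 to 158. The width of that interval leaves the direction unknown. The proteins around the mouth of the exit tunnel that were tested, Rpl19 (-0.04), Rpl23a (-0.02), Rpl26 (-0.01), Rpl35 (-0.01) and Rpl39 (0.03), had adjusted p between 0.795 and 0.979. Rpl39 was dim, at 40.2 to 125 units, and its interval of -0.68 to 0.73 spans changes of over 1.5-fold both ways.

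Among the members of the large subunit with higher means, Rpl18 had the smallest p. It gave 3686, 3852, 3579 and 3773 units in the control and 4277, 3758, 5116 and 4226 in the persimmon peel livers. Replicate 2 of the persimmon peel diet lay within the control range and replicate 3 far above it, so the groups overlapped (log2 fold change 0.21, SE 0.08, limma adjusted p = 0.165). Without persimmon peel replicate 3 the value was 0.13 (adjusted p = 0.301), and with the beta-actin ratio as a covariate it was -0.09. The covariate fit cannot tell diet and ratio apart, and its median over all tested sets was -0.112. Rpl35a (0.11, adjusted p = 0.432), Rpl37a (0.08, adjusted p = 0.565), Rpl13a (0.09, adjusted p = 0.604), a target of phosphorylation in interferon signalling, and Rpl41 (0.10, adjusted p = 0.519), the smallest of the ribosomal proteins, followed. Rpl22, which binds a viral RNA as well as the ribosome, was at 0.02 (adjusted p = 0.926).

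**Figure D3:**
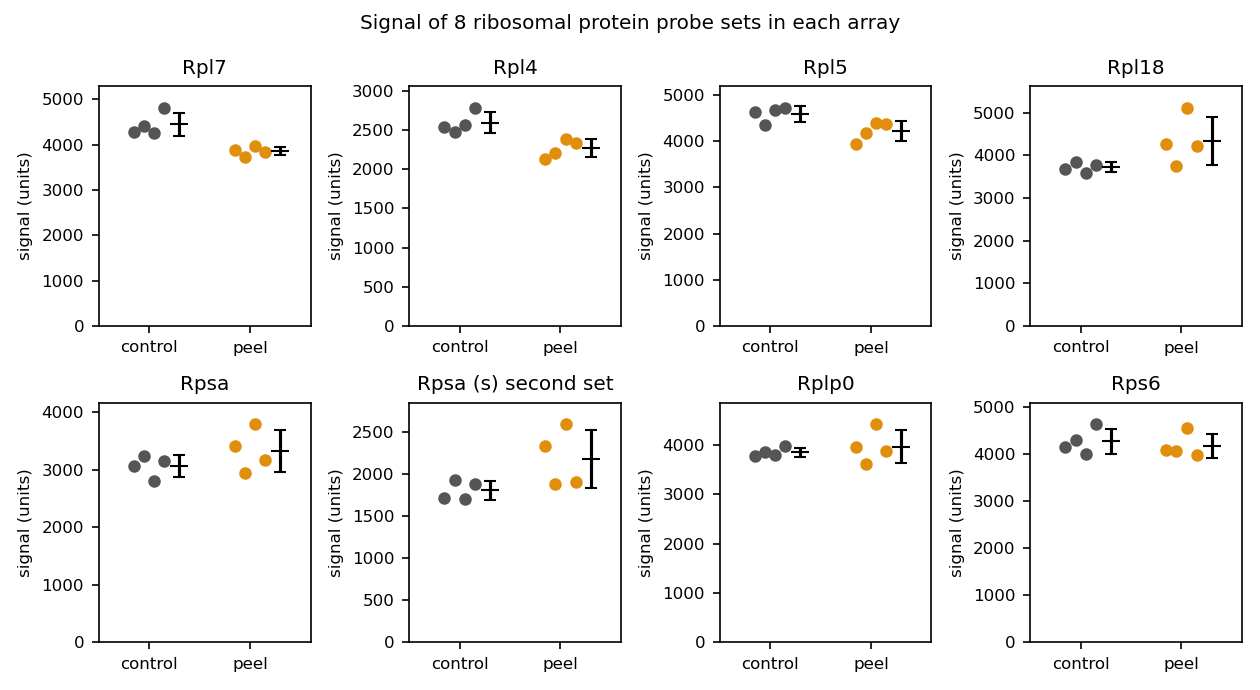
Signal in each array for 8 probe sets of Rpl7, Rpl4, Rpl5, Rpl18, Rpsa (2 sets), Rplp0 and Rps6, control diet in grey and persimmon peel diet in orange, with the mean and SD of 4 arrays as a black bar. The diets are apart in Rpl7 and Rpl4 and overlap in the other sets, with persimmon peel replicate 3 the highest of its group in all 8 sets.

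In the small subunit Rpsa, which doubles as the laminin receptor at the cell surface, had 3 tested sets, which had the 3 smallest p on the higher side. The brightest gave 3057, 3243, 2807 and 3157 in the control livers and 3404, 2935, 3789 and 3163 in the persimmon peel livers (log2 fold change 0.11, SE 0.08, adjusted p = 0.494). The second gave 1719, 1930, 1707 and 1880 against 2335, 1877, 2592 and 1907 (0.26, SE 0.10, adjusted p = 0.173). The last went from 777 ± 51.1 to 898 ± 49.6 (SD, n = 4 each; 0.21, SE 0.09, limma adjusted p = 0.186). All 3 had positive values in this fit, and in each the diets overlapped. With the beta-actin ratio as a covariate they were -0.22, -0.20 and 0.07 in the same order. The median over all tested sets was -0.112 in that fit, which cannot tell diet and ratio apart. The second and last carry marks for sets that may match several transcripts, so the transcript they measure is uncertain. The beta-actin ratio was lowest on persimmon peel arrays 1 and 3, and without that pair the sets had -0.01, 0.07 and 0.14 in that order (adjusted p = 0.983, 0.793 and 0.55). These arrays were also the highest of their group in each Rpsa set, so lower values follow from leaving them out.

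Rps6, the ribosomal protein phosphorylated by S6 kinase downstream of mTORC1, gave 4151, 4308, 4008 and 4638 units in the control livers and 4090, 4073, 4552 and 3983 in the persimmon peel livers. The groups overlapped almost fully (log2 fold change -0.03, 95% interval -0.18 to 0.11, limma adjusted p = 0.83). The array measures its messenger RNA and says nothing of its phosphorylation. At the channel where messenger RNA enters, Rps3 had 0.03 (adjusted p = 0.879) and Rps9 -0.01 (adjusted p = 0.98). Rps23 of the decoding site (-0.05, adjusted p = 0.736) and Rps28 at the exit channel (0.07, adjusted p = 0.67) were alike small. Rps15a (-0.12, adjusted p = 0.453), Rps3a (-0.07, adjusted p = 0.608) and Rps29 (-0.06, adjusted p = 0.643) had the smallest p of the bright sets on the lower side, and Rps15 (0.09, adjusted p = 0.635) came after Rpsa on the higher side. Rps24 had a bright set at -0.06 (adjusted p = 0.652) and a set of 38.4 to 59.4 units at -0.20 with an interval from -0.60 to 0.19.

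The remaining bright members, Rpl6, Rpl7a, Rpl14, Rpl21, Rpl23, Rpl24, Rpl27, Rpl27a, Rpl34 and Rps16, had log2 fold changes from -0.10 (Rpl23) to 0.06 (Rpl14), with adjusted p of at least 0.507. In all, 28 of the 39 bright member sets lay within 0.1 of 0 on the log2 scale. The 4 member sets left out of the test as too dim were the only sets of Rpl28, Rpl30 and Rps13 and a second set of Rpl14. They gave 0.757 to 29.9 units on single arrays, where bacterial control sets reached 14.5, and no fold change is given for them.

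Both subunits varied together from liver to liver. Each set was centred on its mean over the 8 arrays and averaged over the bright sets of a subunit. For the large subunit this gave log2 deviations of -0.01, 0.06, -0.10 and 0.08 in control replicates 1 to 4 and -0.00, -0.12, 0.11 and -0.01 in persimmon peel replicates 1 to 4. For the small subunit it gave -0.00, 0.07, -0.13 and 0.05 in the control livers and 0.03, -0.13, 0.14 and -0.02 in the persimmon peel livers. Persimmon peel replicate 3 was the highest and persimmon peel replicate 2 and control replicate 3 were the lowest in both. The difference between subunits, small minus large, stayed between -0.03 and 0.03 in every liver, with -0.01 ± 0.02 in the control livers and 0.01 ± 0.02 in the persimmon peel livers (SD, n = 4 each). The median of all bright sets on the array deviated in the same direction on most arrays, by -0.11 to 0.10. Relative to that median the members lay at -0.03 ± 0.04 in the control livers and 0.02 ± 0.04 in the persimmon peel livers (SD, n = 4 each).

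**Figure D4:**
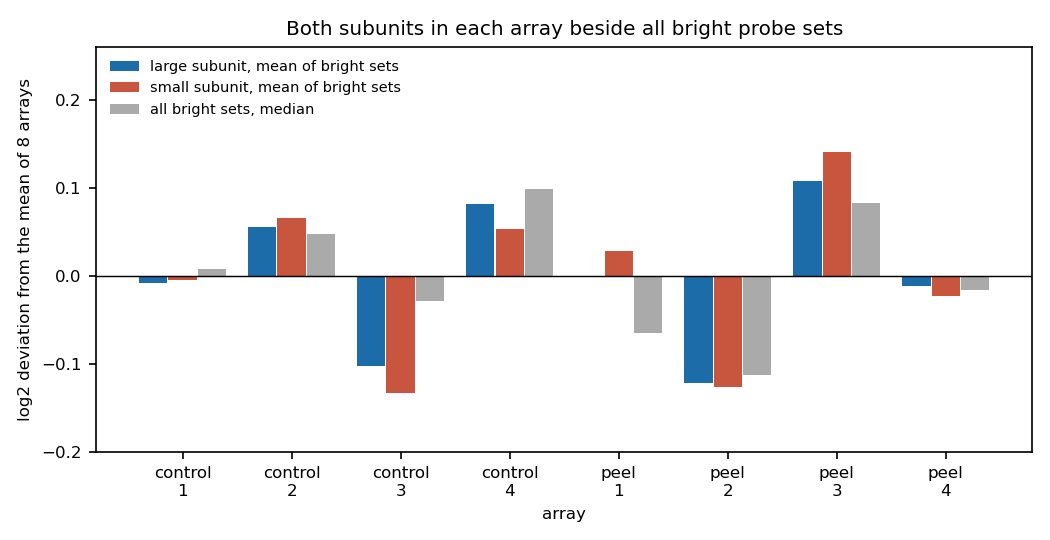
Log2 deviation from the mean of 8 arrays (vertical axis) for each array (horizontal axis), as the mean of the bright sets of the large subunit (blue) and small subunit (red) and the median of all 1567 bright sets (grey). Blue and red bars of an array differ by at most 0.03, and both reach their lowest values in persimmon peel replicate 2 and control replicate 3.

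Single members followed this common movement to different degrees. The correlation of deviations from the diet means over the 8 arrays had a median of 0.77 over the 741 pairs of bright member sets, and 0.347 after each array was centred on the median of all bright sets. All sets of an array share its scaling, so the first value holds the array's overall level as well. Of 39 bright sets, 34 had an r above 0.7 with the mean of the others. The lowest were Rpl5 (0.03), Rps3 (0.313), Rpl37a (0.399) and Rpl4 (0.442), and the highest was Rpl22 (0.984). After centring, Rpl5 (-0.666) and Rpl4 (-0.6) moved against the others and Rpl35 (0.982) with them. These are descriptions over 8 arrays with no test.

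Relatives of the ribosomal proteins whose names fall outside the pattern were also not called, in any of 6 tested sets of 5 genes. Rack1, a scaffold protein of the small subunit, went from 2245 ± 85.8 to 2283 ± 251 units (SD, n = 4 each; 0.02, adjusted p = 0.926). Rps27l, a paralog induced by p53, had -0.21 (SE 0.12, adjusted p = 0.339), and Rps4y2 had 0.17 (adjusted p = 0.564). The sets of Rpl7l1 had -0.14 (adjusted p = 0.418) and -0.06 (adjusted p = 0.832), and Rpl26l1 had 0.05 (adjusted p = 0.906). The muscle paralog Rpl3l gave 1.26 to 5.54 units and was not tested.

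Mitochondrial ribosomal proteins, which build the separate ribosome of that organelle, had 1 of 89 tested sets lower and 0 higher, with a median log2 fold change of -1.7e-05. The called set was one of Mrpl37, which went from 134 ± 10.01 to 93.7 ± 4.57 units (SD, n = 4 each; -0.51, SE 0.12, limma adjusted p = 0.0227). Its brighter set had 0.07 (adjusted p = 0.757). Mrpl49, a protein of the mitochondrial large subunit, had -0.45 in 1 set (limma adjusted p = 0.0577) and -0.004 in its brighter set (adjusted p = 0.988). The Mrpl37 call was lost without persimmon peel replicate 1 or 4 or control replicate 2, 3 or 4. Like the cytosolic family, this one had calls below the share over all tested sets, 1.12% against 4.53% lower; the difference between the families was not tested.

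Of 48 tested sets of initiation factors, 7 were lower and 0 higher (14.6%, against 4.53% of all tested sets). These were sets of Eif4g2, Eif3j, Eif1a, Eif4h, Eif3c, Eif3l and Eif3a, with log2 fold changes from -1.08 to -0.68. The leading set of Eif4g2, a scaffold related to Eif4g1, went from 905 ± 106 to 437 ± 120 units (SD, n = 4 each; -1.08, SE 0.15, limma adjusted p = 0.00224). Its brightest set went from 4293 ± 283 to 3588 ± 246 (-0.26, SE 0.07, adjusted p = 0.0577) and a further set had 0.03. In all 7 genes a brighter set was tested and not called, with values from -0.55 to 0.16 over the 10 other sets, and over the brightest set of each of 31 genes the median was -0.01 with 0 calls. Sets of 1 gene thus differed. Calls were also few among brightest sets over the whole array. A fit on only the brightest set of each gene called 71 of 7109 sets lower and 5 higher. The count of lower initiation factor sets was 4 without control replicate 4, 13 without persimmon peel replicate 2 and 2 without persimmon peel arrays 1 and 3. Lower calls over the whole array moved the same way, from 703 to 294, 942 and 76 in these fits.

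Elongation and release factors, several of which are TOP messenger RNAs like the ribosomal proteins, had 0 of 13 sets called by limma, against 4.95% of all tested sets. At an unadjusted p under 0.05 there were 2 (15.4%), against 19.6% of all tested sets. The median was -0.04. Eef1a1 brings aminoacyl-tRNA to the ribosome. Its brightest set gave 8098 ± 252 units on the control and 7370 ± 250 on the other diet (SD, n = 4 each). The diets did not overlap in that set (log2 fold change -0.14, SE 0.06, limma adjusted p = 0.184). A further Eef1a1 set had -0.10 with overlap (adjusted p = 0.3825), and Eef1a2 had 0.52 (adjusted p = 0.225). Of 84 sets of ribosome biogenesis factors, which build the subunits in the nucleolus, 1 was lower (1.19%, against 4.53% of all tested sets). Higher sets numbered 0, against 0.425% of all tested sets, and the median was 0.03. The lower set was one of the RNA helicase gene Ddx21 (-0.56, SE 0.15, limma adjusted p = 0.0461). Its call ended in 7 of 8 fits that left out 1 array. A brighter Ddx21 set had -0.33 and overlapped between the diets (SE 0.11, limma adjusted p = 0.118). Nob1, a nuclease of small subunit maturation, had 0.40 (adjusted p = 0.0577).

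The genes that set the use of ribosomal protein messenger RNA gave 2 lower and 2 higher sets of 27 tested (7.41% each, against 4.53% lower and 0.425% higher over the array). Larp1, named after its values were seen, which binds the cap and TOP tract, had 3 of 4 sets with positive values beyond 0.38. They went from 595 ± 121 to 856 ± 108 (0.54, SE 0.13, limma adjusted p = 0.0282), from 528 ± 46.9 to 710 ± 104 (0.42, SE 0.11, adjusted p = 0.0477) and from 595 ± 46.0 to 785 ± 137 (0.39, SE 0.12, adjusted p = 0.0758; SD, n = 4 each). The brightest Larp1 set had 0.09 (adjusted p = 0.612). Both higher calls were lost without control replicate 1, 2 or 4 or persimmon peel replicate 1 or 3, and in the fit with no filter. Rps6kb1, the S6 kinase, had 1 lower set, from 115 ± 13.6 to 67.4 ± 3.87 (SD, n = 4 each; -0.77, SE 0.13, adjusted p = 0.00554), and a brighter set at 0.07 (adjusted p = 0.776). Cnbp, a binder of TOP messenger RNAs, had its single tested set lower, from 2450 ± 151 to 1860 ± 165 (SD, n = 4 each; -0.40, SE 0.08, adjusted p = 0.0122). The lower calls numbered 1 without control replicate 4 or persimmon peel replicate 1. The kinase gene Mtor (0.21, adjusted p = 0.321) and its substrate Eif4ebp1 (0.29, adjusted p = 0.145) did not pass. Neither did the 3 sets of Mdm2, at -1.44 (adjusted p = 0.0664) and -0.38 (adjusted p = 0.092), both without overlap, and at 0.01 in the brightest (adjusted p = 0.984). These 3 genes were likewise named after their values were seen.

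Different sets of 1 gene can report different parts of a transcript, and in the members this could be followed for few genes. The log2 ratio of the second to the brightest set of Rpsa was -0.76 ± 0.05 for control and -0.62 ± 0.09 for persimmon peel livers (SD, n = 4 each), and that of the last set -1.98 ± 0.05 and -1.88 ± 0.11. For Rpl7 the dim set lay -6.03 ± 0.16 and -5.96 ± 0.24 from the bright one, and for Rps24 -6.30 ± 0.30 and -6.45 ± 0.23. The ranges of the diets overlapped in Rpl7, Rps24 and both ratios of Rpsa. With the beta-actin ratio as a covariate, limma called 0 members and 0 sets in all, and the medians were -0.216 for the large and -0.226 for the small subunit, against -0.112 over all sets. In that fit diet and ratio are nearly the same variable, since the ratio did not overlap between the diets.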

How the data were processed

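Per the submitters' processing notes, the authors' deposited signals come from MAS5 and are linear intensity units, 1 value per probe set and array. Its version, scaling target and detection calls: not given in the sources used here. ISOGEN and RNeasy purification and biotin labelling are per the labels' protocols. Signals were taken to log2 with a pseudocount of 0 and no further scaling. The 57 control sets and the dimmest 50% of the other 31042 sets were left out, which kept 15521 sets with a geometric mean of 34.4 or more. The diets (4 against 4 arrays) were tested two-sided with limma 3.58.1 under R 4.3.3 (lmFit, eBayes with intensity trend), adjusted by Benjamini-Hochberg over all tested sets; the fit was tested on simulated data. Means and SDs are of linear signals.

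Members carry the platform's symbols; 40 of 42 genes were found in RefSeq by gene number. Members, lists and alternatives were chosen with earlier results of these data known. The text names the 4 sets of each subunit with the smallest p in each direction, genes with a listed structural role, relatives outside the name pattern and, in other lists, the 2 sets with the smallest p and called translation factors. No array batch is named in the labels, and p-values measure the spread between these 8 rats. Array number limits the precision. The alternatives are in the closing section.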

Additional observations from a re-analysis of the deposited data

Results flagged for a closer look

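Of 88 groups of 4 arrays (44 member sets in each of 2 diets), 1 had an array that stood apart from the others by Dixon's ratio, where chance gives about 1 group in 20. In the bright set of Rpl3 control replicate 3 gave 3790 units, and the other 3 control livers gave 4176 to 4225 (ratio 0.889). On that array the bright members averaged the lowest of the control arrays, at -0.10 for the large and -0.13 for the small subunit on the log2 scale.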

How the results depend on the processing

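Each alternative changed 1 choice at a time. Quantile normalization gave 2 higher calls in the large and 1 in the small subunit, and leaving out 1 array in turn gave 0 to 1 higher calls in the large subunit. With the beta-actin ratio as covariate the medians moved to -0.216 (large) and -0.226 (small), while 0 members were called. Under the other settings 0 members were called, and the medians moved by less than the spread between livers. Signs changed in 16 of 44 sets under quantile normalization and in 15 with the covariate; both settings also moved the median of the members, so these counts do not test single sets. With sets that carry several symbols added, chosen after seeing the data, 0 were called, with 1 of those 33 sets at an unadjusted p under 0.05. With the replicate number as a block (replicate block), 0 members were called, and the lowest limma adjusted p was 0.17. Same-numbered arrays correlated with r from -0.08 to 0.05 in their deviations from the diet means. The labels do not say whether the numbers pair the rats, and so few correlations cannot decide it.

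Among the related lists, initiation factors had 11 lower calls with array weights, where 875 of 15521 sets over the array were lower. They had 0 with the brightest set only, where 71 of 7109 sets over the array were lower. The list of regulators of these messenger RNAs had 5 higher calls after quantile normalization, where 271 of 15521 sets were higher. Dim sets limit Rpl39, Rpl28, Rpl30 and Rps13 most.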

Other observations

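The array carries a control set for 5S ribosomal RNA, the RNA partner of Rpl5 and Rpl11, which the name pattern does not take. It gave 56.8, 62.6, 79.2 and 84.6 units on the control and 110, 70.6, 96.0 and 80.0 units on the persimmon peel diet, with overlap. What the set measures in these preparations was not tested.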
